A study of Mus musculus with 6 samples.

Results

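Tgfb1, Tgfb2, Tgfb3, Bmp4 and Inhba encode ligands, Tgfbr1 and Tgfbr2 encode receptors, and Fst and Smad7 encode inhibitors of signalling by transforming growth factor-beta (TGF-beta), bone morphogenetic protein (BMP) and activin. These 9 genes were picked by symbol and not by a threshold on a measured value, with earlier results of these data known, from the 32285 genes listed in the count files. Their transcripts were counted in single cells of orthotopic pancreatic tumours, in the cancer, macrophage, neutrophil, T cell and stromal compartments. The tumours grew in wild-type C57BL/6 mice aged 6 to 8 weeks after injection of KPC cells, which are mouse pancreatic cancer cells, and were harvested after 4 weeks. The injected cells carried an empty vector (OE-Vector) or a construct that overexpresses Mlkl (OE-MLKL), whose product is the pseudokinase that permeabilises the plasma membrane in necroptosis. The construct was in the injected cells, and the macrophages, neutrophils and T cells came from the host, whereas the stromal gate also held cells that clustered with cancer cells. The labels give 3 samples to each group, and the 4 libraries analysed were OE-Vector 1 and OE-MLKL 1, 2 and 3. The question put to the data was where each gene was expressed and whether its level differed between OE-MLKL and OE-Vector tumours.

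TGF-beta ligands are secreted in a latent form and, once released, bind a type II receptor, which recruits and phosphorylates a type I receptor. The type I receptor passes the signal to SMAD proteins, with SMAD2 and SMAD3 acting for TGF-beta and activin and SMAD1, SMAD5 and SMAD9 for BMPs. In pancreatic tumours TGF-beta restrains epithelial growth, drives the fibroblast programme of the stroma and dampens T cells, while follistatin, the product of Fst, traps activins and, less tightly, BMPs outside the cell, and SMAD7 blocks the pathway inside it.

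The stretches just upstream of the start sites of 3 ligand genes are shown because their levels set compartments apart, with Tgfb2 at its highest level in stromal cells and Bmp4 and Inhba at their highest mean level in cancer cells. They are the 250 bases before the start of each gene in RefSeq (assembly GRCm38.p6), written along the strand of the gene, from chr1:186705990-186706239 (minus strand) for Tgfb2, chr13:16011601-16011850 (plus strand) for Inhba and chr14:46390670-46390919 (minus strand) for Bmp4. Capitals mark the letters CAGAC, which SMAD3 and SMAD4 can bind, and TATAAA, the core promoter element near many start sites.
Tgfb2: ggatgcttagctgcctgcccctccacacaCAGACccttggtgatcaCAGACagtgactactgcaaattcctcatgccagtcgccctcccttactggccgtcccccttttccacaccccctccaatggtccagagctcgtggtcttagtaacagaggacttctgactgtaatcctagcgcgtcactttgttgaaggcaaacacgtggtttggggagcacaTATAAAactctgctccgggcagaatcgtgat
Inhba: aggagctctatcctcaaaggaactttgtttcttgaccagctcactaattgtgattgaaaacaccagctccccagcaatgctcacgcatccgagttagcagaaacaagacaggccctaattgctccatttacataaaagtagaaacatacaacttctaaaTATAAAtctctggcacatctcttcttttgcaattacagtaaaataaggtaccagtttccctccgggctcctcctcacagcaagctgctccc
Bmp4: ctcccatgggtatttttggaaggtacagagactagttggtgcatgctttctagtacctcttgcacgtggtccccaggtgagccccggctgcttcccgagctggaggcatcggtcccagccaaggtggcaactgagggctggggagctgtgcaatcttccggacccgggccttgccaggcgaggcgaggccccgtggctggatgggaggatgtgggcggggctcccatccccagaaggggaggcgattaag

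Motifs were searched on both strands, and besides these 2 they were GGCGCC, a BMP response element, and TGANTCA, an AP-1 site, where N is any base. The Tgfb2 stretch held 2 copies of CAGAC and 1 TATAAA, the Inhba stretch held 1 TATAAA, and the Bmp4 stretch held none of the 4. CAGAC occurred in 42.2%, TATAAA in 12.4%, GGCGCC in 9.59% and TGANTCA in 6.75% of 32851 mouse promoters of the same length. A match of letters is a description of the sequence and not a bound site.

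The libraries held 150591289 to 169978362 unique molecular identifiers (UMIs), the tags that count each captured transcript, and 63182 cells passed the filters. Cells were assigned to compartments by marker genes, none of them among the 9 genes described, which gave 1883, 3862, 4689 and 1487 cancer cells, 2011, 2495, 2343 and 2814 macrophages, 6341, 5363, 7410 and 6395 neutrophils, 953, 538, 600 and 718 T cells and 50, 168, 106 and 131 stromal cells. These counts, and all values listed by library, stand in the order OE-Vector 1, OE-MLKL 1, OE-MLKL 2 and OE-MLKL 3. Each pair of libraries shared 53 to 90 cell barcodes. The cancer gate was marked by Krt8 (556 to 840 counts per 1000000 UMIs, CPM) and Krt18 (434 to 808 CPM), whereas the epithelial markers Epcam (3.89 to 36.4 CPM) and Cdh1 (4.50 to 12.7 CPM) were low in it. The T cell gate was led by Cd3g but also by Gzma and Nkg7, genes of cytotoxic and natural killer cells. The natural killer marker list summed to 3927, 705, 945 and 2049 CPM there. That list includes Gzma, which alone had 2061 CPM in this gate over all libraries. The sum therefore does not tell natural killer cells from cytotoxic T cells.

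In neutrophils and macrophages OE-MLKL 3 stood with OE-Vector 1 rather than with the other OE-MLKL libraries, and in cancer cells it stood apart from them. In an unsupervised clustering the neutrophils of OE-Vector 1 and OE-MLKL 3 shared 91.3% of their cluster make-up, against 1.65% and 3.30% for OE-Vector 1 with OE-MLKL 1 and 2. For macrophages the corresponding shares were 79.3% against 14.6% and 18.2%. In cancer cells OE-MLKL 3 shared 31.2% with OE-Vector 1 and 13.1% and 17.4% with OE-MLKL 1 and 2, which shared 83.5% with each other, while OE-Vector 1 shared 30.2% and 44.4% with OE-MLKL 1 and 2. The corresponding shares were 89.5% against 78.6% and 79.9% in stromal cells. T cells shared at least 99.8% in every pair of libraries. Nearly all of them lay in cluster 8, so that this share cannot show differences within the T cell gate. Mlkl itself, on chromosome 8 (111311797 to 111338177, minus strand, GRCm38), had no higher mean level in cancer cells of the libraries labelled OE-MLKL. Its level was 17.1, 9.70, 13.6 and 21.2 CPM, so that OE-MLKL 3 lay above OE-Vector 1 and OE-MLKL 1 and 2 below it, with a log2 fold change of −0.34 ± 0.37 (SE; adjusted p = 0.998 in the edgeR quasi-likelihood test). Because of the clustering, the fold changes between OE-MLKL and OE-Vector are also given without OE-MLKL 3. That leaves OE-MLKL 1 and 2, whose Mlkl level lay below OE-Vector 1.

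**Figure D1:**
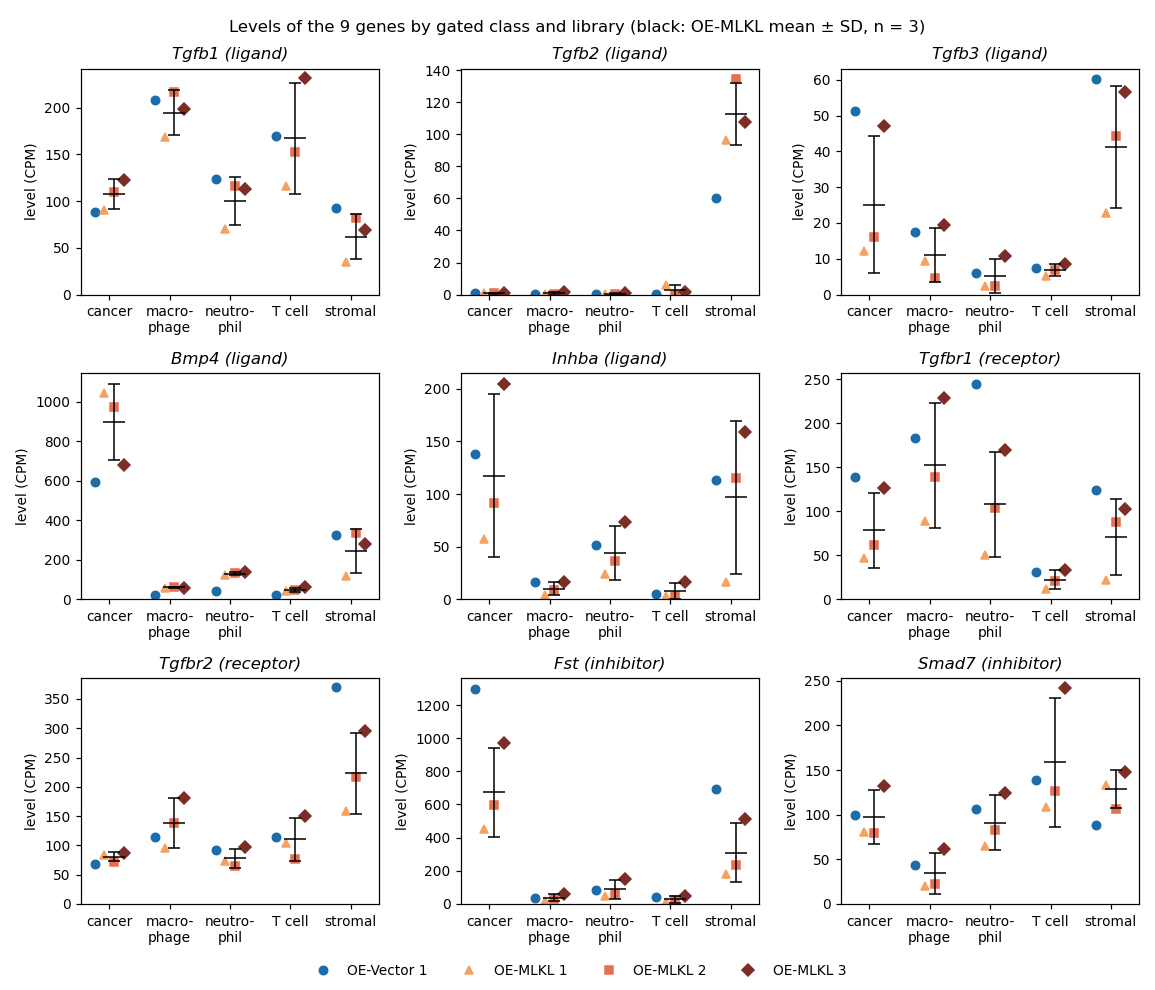
Level of each gene (counts per 1000000 UMIs, linear axis from 0) in the 5 gated compartments, 1 panel per gene and 1 marker per library, with the mean ± SD of the 3 OE-MLKL libraries in black. The Tgfb2 level was far higher in stromal cells than elsewhere, Bmp4 and Fst were highest in cancer cells, and of the 5 compartments macrophages had the highest Tgfb1 in 3 of 4 libraries.

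Most of the 9 genes differed between compartments. UMIs were summed over the cells of a compartment in each library, and every pair of compartments was tested with edgeR, with library as a covariate and Benjamini-Hochberg adjustment over all 14308 genes tested at a threshold of 0.05. Of 90 tests of a gene between 2 compartments, 71 passed, against 62.7% of the tests of all genes. Without OE-MLKL 3, 63 of the 90 passed (56.3% of the tests of all genes), with 9 calls lost, 1 gained and none reversed. The calls lost were 4 of Tgfbr2 and 1 each of Tgfb1, Tgfb3, Inhba, Fst and Smad7. By pair, the share of all genes called was 67.6% for cancer cells with macrophages, 78.3% with neutrophils, 63.9% with T cells and 37.3% with stromal cells. It was 67.3%, 58.2% and 53.8% for macrophages with neutrophils, T cells and stromal cells, 69.4% and 69.6% for neutrophils with T cells and stromal cells, and 61.7% for T cells with stromal cells. Fst passed in 10 of 10 pairs, Tgfb1, Bmp4, Inhba and Tgfbr2 in 9, Tgfb3 and Tgfbr1 in 8, Smad7 in 5 and Tgfb2 in 4. The tests used TMM scaling, in which the factors of neutrophils (0.750 to 0.901) were below those of cancer cells (1.05 to 1.27), so that small differences in CPM between these compartments are not those tested.

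Tgfb1 (ENSMUSG00000002603, chromosome 7, 25687002 to 25705077, plus strand) encodes the most widely made TGF-beta ligand and was counted in every compartment. In macrophages it stood at 209, 169, 217 and 199 CPM, and in T cells at 170.0, 116, 153 and 232 CPM. The macrophage level was above that of T cells in 3 of 4 libraries, and the difference passed the test (log2 0.50 ± 0.16, adjusted p = 0.0125, edgeR), though not without OE-MLKL 2 (log2 0.41). Neutrophils followed with 124, 70.2, 117 and 113 CPM, which did not differ from T cells past the threshold (adjusted p = 0.113, edgeR). Cancer cells had 88.0, 90.5, 109 and 123 CPM, a range that overlapped that of neutrophils, and neutrophils were higher in 2 of 4 libraries in CPM although the TMM-scaled difference passed (log2 0.42 ± 0.16, adjusted p = 0.0218, edgeR). That call was lost without OE-Vector 1 (log2 0.23), without OE-MLKL 2 (0.26) and without OE-MLKL 3 (0.35), and also with no count filter (0.17), at 1000 UMIs per cell (0.23), with the stricter gate (0.36) and with cluster classes (0.21). Stromal cells were lowest, with 92.9, 35.3, 81.9 and 68.7 CPM, and were below cancer cells in 3 of 4 libraries (log2 0.60 ± 0.17 for cancer over stromal, adjusted p = 0.0108, edgeR), a call lost without OE-MLKL 1 (log2 0.45). Outside the 5 compartments, the 40, 23, 39 and 34 cells gated as endothelial had 251, 211, 242 and 239.5 CPM, above macrophages in each library. Relative to barcodes of at most 100 UMIs in the same library, which mostly hold no cell, Tgfb1 stood at 156% to 195% in macrophages, 108% to 217% in T cells, 65.0% to 106% in neutrophils, 74.7% to 115% in cancer cells and 32.7% to 78.9% in stromal cells, and how much of these counts came from free RNA was not tested.

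Tgfb2 (ENSMUSG00000039239, chromosome 1, 186622792 to 186705989, minus strand) encodes a ligand that needs the co-receptor betaglycan for strong receptor binding. Its level was highest in stromal cells, with 60.1, 96.4, 134 and 107 CPM. These cells held 527 Tgfb2 UMIs in all, against 159 in the far more numerous cancer cells, 41 in macrophages, 21 in T cells and 20 in neutrophils. The closest compartment, T cells, had 2, 14, 0 and 5 UMIs in all, and the stromal level was higher by 5.83 ± 0.57 on the log2 scale (adjusted p = 7.21e-08, edgeR). Mean levels in cancer cells, neutrophils and macrophages were 0.759, 0.560 and 0.549 CPM. No pair among these 4 compartments differed past the threshold with all libraries, and without OE-MLKL 3 macrophages were below T cells (log2 −2.98, adjusted p = 0.022, edgeR). Of the stromal cells, 34.0%, 36.9%, 27.4% and 42.7% carried a Tgfb2 UMI, and of the cancer cells, which were deeper at a median of 12450 to 26694 UMIs against 5916 to 14774, between 0.917% and 2.07% did. After thinning to 1000 UMIs per cell, which kept 50, 166, 106 and 130 stromal and 1833, 3821, 4585 and 1438 cancer cells, the shares were 8.0%, 6.02%, 11.3% and 5.38% of stromal cells and 0.0546% to 0.209% of cancer cells.

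Tgfb3 (ENSMUSG00000021253, chromosome 12, 86056745 to 86079041, minus strand), the third TGF-beta ligand, overlaps Ttll5 on the opposite strand. Its level was 60.1, 22.7, 44.3 and 56.6 CPM in stromal cells and 51.3, 12.2, 15.9 and 47.2 CPM in cancer cells. Stromal cells were above cancer cells in 4 of 4 libraries, but the difference did not pass (log2 0.69 ± 0.28, adjusted p = 0.0669, edgeR). In both compartments OE-Vector 1 and OE-MLKL 3 were the highest libraries. Macrophages had 17.6, 9.49, 4.51 and 19.3 CPM, below cancer cells (log2 0.97 ± 0.26, adjusted p = 0.0027, edgeR), and T cells and neutrophils had means of 6.99 and 5.39 CPM that did not differ past the threshold.

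Bmp4 (ENSMUSG00000021835, chromosome 14, 46383520 to 46390669, minus strand) encodes a BMP ligand, and its upstream stretch, like that of Tgfb1, held none of the 4 motifs. Cancer cells had 595, 1042, 971 and 678 CPM. Stromal cells had 327, 119, 336 and 278 CPM, below cancer cells in every library (log2 1.57 ± 0.31 for cancer over stromal, adjusted p = 0.000562, edgeR). The stromal value depended on how the gate was set. With a stricter stromal gate it was 99.0, 61.7, 95.1 and 78.0 CPM while the cancer marker list in that gate went from 771, 212, 393 and 421 CPM to 509, 179, 287 and 230.1 CPM. Neutrophils had 41.2, 123, 131 and 136 CPM, macrophages 23.1, 59.2, 63.8 and 58.2 CPM and T cells 19.3, 41.2, 44.7 and 60.2 CPM. The order of stromal cells over neutrophils (log2 1.07 ± 0.31, adjusted p = 0.00522, edgeR) turned round with the stricter gate (log2 −0.52) and was lost without OE-Vector 1 (log2 0.55), whereas neutrophils were above macrophages in 4 of 4 libraries (log2 1.19 ± 0.30, adjusted p = 0.00212, edgeR).

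Inhba (ENSMUSG00000041324, chromosome 13, 16011851 to 16031621, plus strand) encodes the subunit whose homodimer is activin A. In cancer cells it stood at 138, 57.1, 91.1 and 205 CPM, and in stromal cells at 113, 16.8, 115 and 159 CPM. The ranges overlapped and the difference did not pass (log2 0.37 ± 0.24, adjusted p = 0.254, edgeR). In neutrophils the level was 51.4, 23.5, 36.1 and 73.0 CPM. Stromal cells were above neutrophils by 0.63 ± 0.25 on the log2 scale (adjusted p = 0.0337, edgeR), a call lost in DESeq2 (0.51), with RLE scaling (0.52), with doublets kept (0.25), with the stricter gate (0.22) and without OE-MLKL 2 (0.38), OE-MLKL 3 (0.57) or OE-Vector 1 (0.64), and turned round with cluster classes (−0.17). With the stricter gate stromal Inhba was 83.2, 13.03, 83.0 and 98.2 CPM. Neutrophils were above macrophages, which had 16.7, 4.40, 8.44 and 16.5 CPM, in every library (log2 2.18 ± 0.25, adjusted p = 5.01e-07, edgeR), and T cells were lowest at a mean of 6.94 CPM. Relative to the barcodes of at most 100 UMIs, Inhba stood at 115% to 222% in cancer cells, 33.7% to 172% in stromal cells, 47.4% to 79.1% in neutrophils, 8.85% to 19.0% in macrophages and 3.73% to 17.8% in T cells. The summed cancer marker list stood at 17.1% to 29.8%, 8.82% to 15.1% and 6.06% to 18.0% in the last 3, and the part of free RNA was not tested.

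Of the receptors, Tgfbr1 (ENSMUSG00000007613, chromosome 4, 47353222 to 47414931, plus strand), the type I TGF-beta receptor, was highest in the myeloid cells. Macrophages had 183, 88.7, 139 and 228 CPM and neutrophils 245, 50.3, 104 and 169 CPM, with no difference past the threshold between them (log2 0.16 ± 0.19, adjusted p = 0.457, edgeR). Cancer cells had 139, 46.6, 62.1 and 127 CPM and were below neutrophils in every library (log2 0.95 ± 0.19 for neutrophils over cancer cells, adjusted p = 0.000154, edgeR). OE-MLKL 1 was the lowest library in each of the 5 compartments. Stromal cells, at 124, 22.1, 87.3 and 103 CPM, did not differ from cancer cells past the threshold, and T cells were lowest with 30.5, 12.1, 20.3 and 33.4 CPM.

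Tgfbr2 (ENSMUSG00000032440, chromosome 9, 116084293 to 116175360, minus strand), the type II receptor that binds the ligand, had its highest level in stromal cells, at 370.3, 158, 216 and 296 CPM. Macrophages had 115, 96.3, 137 and 181 CPM, below stromal cells in every library (log2 0.72 ± 0.18, adjusted p = 0.00267, edgeR). T cells had 115, 104, 77.2 and 149.8 CPM, neutrophils a mean of 81.7 CPM and cancer cells 67.7, 83.1, 71.6 and 86.3 CPM. T cells and neutrophils did not differ past the threshold (adjusted p = 0.731, edgeR), and neutrophils passed over cancer cells (log2 0.45 ± 0.18, adjusted p = 0.0285, edgeR) while being higher in CPM in 2 of 4 libraries. Without OE-Vector 1, OE-MLKL 2 or OE-MLKL 3 that call was lost (log2 0.29, 0.38 and 0.31). Across the 20 sums of 1 compartment in 1 library, which share libraries and depth, Tgfbr2 and Tgfb2 had a Pearson r of 0.783 on log2(CPM + 1), given as a description.

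Fst (ENSMUSG00000021765, chromosome 13, 114452290 to 114458951, minus strand) encodes follistatin, the secreted activin trap. Cancer cells had 1299, 451, 598 and 972 CPM and stromal cells 691, 183, 234 and 512 CPM, and cancer cells were higher in every library (log2 1.07 ± 0.18, adjusted p = 0.000142, edgeR). With the stricter stromal gate the stromal level was 216, 176, 104 and 153 CPM. A Fst UMI was seen in 93.7%, 84.3%, 87.5% and 87.0% of cancer cells and in 18.6%, 5.02%, 7.67% and 19.6% of T cells. Thinned to 1000 UMIs per cell, these shares were 61.5%, 29.6%, 38.8% and 47.9% of cancer cells and 4.68%, 1.72%, 3.09% and 5.73% of the 940, 523, 583 and 715 T cells deep enough. Neutrophils (86.1, 49.2, 61.2 and 153 CPM) were above macrophages (35.6, 18.0, 31.1 and 60.2 CPM) in 4 of 4 libraries (log2 1.39 ± 0.19, adjusted p = 3.8e-06, edgeR), but not past the threshold with doublets kept (log2 0.42). Macrophages were above T cells, which had 41.5, 12.1, 21.7 and 48.9 CPM, in 3 of 4 libraries (log2 0.51 ± 0.20, adjusted p = 0.0355, edgeR). That call was lost without any 1 of the OE-MLKL libraries (log2 0.41 to 0.48). It was also lost in DESeq2 (0.41), with RLE scaling (0.41) and at 1000 UMIs per cell (0.45). With the stricter gate (0.34) and with cluster classes (0.45) it was lost as well. Relative to the barcodes of at most 100 UMIs, Fst stood at 147% to 223% in cancer cells and 57.6% to 117% in stromal cells. It stood at 14.2% to 35.0% in neutrophils, 5.87% to 13.8% in macrophages and 4.05% to 11.2% in T cells. In these last 3 the summed cancer marker list stood at 17.1% to 29.8%, 8.82% to 15.1% and 6.06% to 18.0%. The part of free RNA was not tested. Over the 20 sums Fst went with Inhba, which encodes the ligand it traps (Pearson r = 0.910), and with Bmp4 (r = 0.874).

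Smad7 (ENSMUSG00000025880), the intracellular inhibitor that TGF-beta itself induces, differed in 5 of the 10 pairs, 4 of them pairs with macrophages. The other call, T cells over cancer cells, was lost without OE-MLKL 3. T cells had 139, 108, 126 and 242 CPM, stromal cells 88.8, 133, 106 and 148 CPM, cancer cells 99.4, 80.3, 79.9 and 133 CPM and neutrophils 106, 65.0, 83.2 and 125 CPM. No neighbours in this order differed past the threshold. Macrophages had 43.5, 19.6, 22.2 and 61.0 CPM and were below neutrophils in every library (log2 1.58 ± 0.22 for neutrophils over macrophages, adjusted p = 4.91e-06, edgeR).

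OE-MLKL tumours were then compared with OE-Vector 1 in each compartment. None of the 9 genes passed the test. The summed UMIs of 3 OE-MLKL libraries were set against the single OE-Vector library, so that the spread came from the OE-MLKL libraries and the OE-Vector sample was assumed to vary like them. The cells compared within a compartment other than T cells sat in clusters whose shares differed from library to library. T cells lay nearly all in cluster 8, which does not show that their make-up was alike. The natural killer marker list, which includes Gzma, had 3927 CPM in T cells of OE-Vector 1 and 705 CPM in those of OE-MLKL 1. In cancer cells cluster 7 held 52.5% of OE-Vector 1, cluster 0 held 74.5% and 58.4% of OE-MLKL 1 and 2, and cluster 10 held 64.8% of OE-MLKL 3. Of macrophages, cluster 6 held 73.3% of OE-Vector 1 and 92.4% of OE-MLKL 3, and cluster 4 held 93.3% and 89.8% of OE-MLKL 1 and 2. Most neutrophils lay in clusters 1 and 3 in OE-Vector 1 and OE-MLKL 3 and in clusters 2 and 5 in OE-MLKL 1 and 2. Of stromal cells, cluster 17 held 76%, 94.6%, 84.0% and 77.9%, while clusters 10 and 7, which also held cancer cells, took 12% and 10% in OE-Vector 1, cluster 0 took 4.76% and 14.2% in OE-MLKL 1 and 2 and cluster 10 took 19.8% in OE-MLKL 3. The counts of genes called in edgeR were 0 of 9 in cancer cells (0.0% of all genes tested), 0 of 9 in macrophages (0.0292%), 0 of 8 in neutrophils, where Tgfb2 was too low to test (0.0%), 0 of 9 in T cells (0.0266%) and 0 of 9 in stromal cells (0.0%). At an unadjusted p under 0.05 the counts were 1, 1, 2, 1 and 0, against 4.77%, 6.15%, 9.11%, 4.66% and 5.08% of all genes. DESeq2 called 0, 1, 1, 0 and 0 of them, against 0.473%, 0.606%, 0.891%, 0.16% and 0.132% of all genes. The median log2 fold change of the tested members was −0.16, −0.21, −0.48, −0.08 and −0.55, beside medians of 0.02, 0.04, 0.05, 0.02 and 0.03 over all genes.

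**Figure D2:**
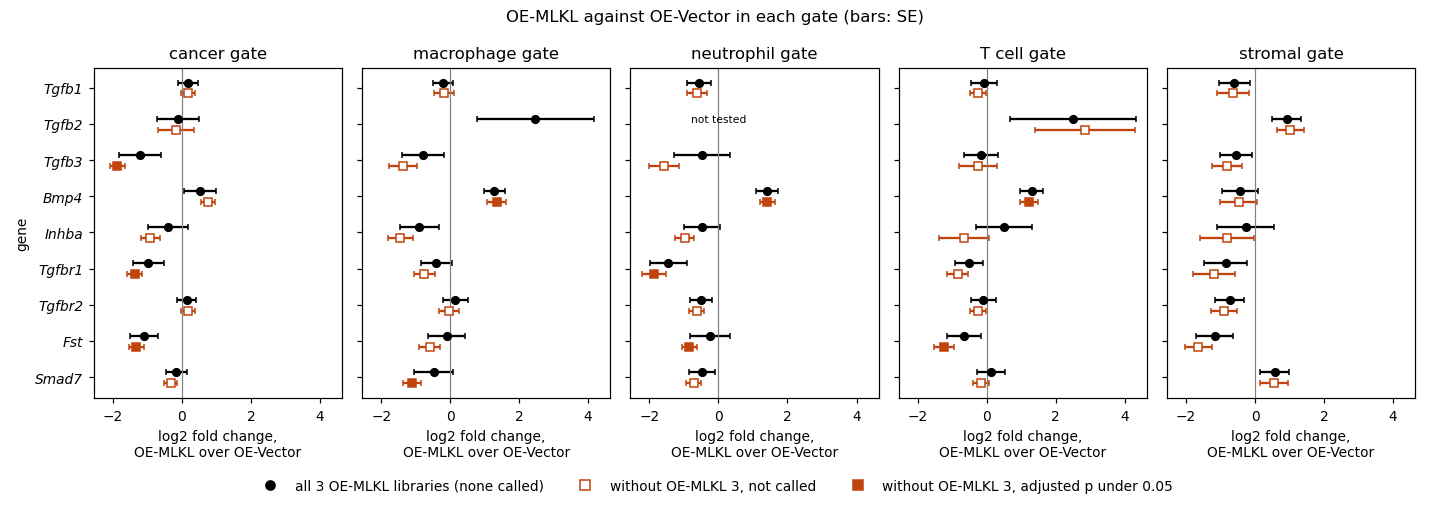
Log2 fold change of each gene, OE-MLKL over OE-Vector, in the 5 compartments (points with SE bars), with all 3 OE-MLKL libraries in black and without OE-MLKL 3 in orange, where filled squares passed the test. With all libraries no gene passed, and without OE-MLKL 3 the cancer panel has 3 filled squares, at −1.88 for Tgfb3, −1.37 for Tgfbr1 and −1.32 for Fst.

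Among the ligands, Bmp4 had a higher level in all OE-MLKL libraries than in OE-Vector 1 in cancer cells, macrophages, neutrophils and T cells. In macrophages the 3 OE-MLKL libraries (58.2 to 63.8 CPM) were above OE-Vector 1 (23.1 CPM), with a log2 fold change of 1.28 ± 0.29 (adjusted p = 0.492 in edgeR, adjusted p = 0.0436 in DESeq2). In neutrophils the OE-MLKL libraries (123 to 136 CPM) were above OE-Vector 1 (41.2 CPM) by 1.41 ± 0.33 on the log2 scale (adjusted p = 0.431 in edgeR and 0.0433 in DESeq2). In T cells the log2 fold change was 1.30 ± 0.33, again with the groups apart (41.2 to 60.2 CPM against 19.3 CPM, adjusted p = 0.583, edgeR). Cancer cells had a smaller log2 difference of 0.51 ± 0.46, and in stromal cells the value was −0.43 ± 0.53 with OE-Vector 1 inside the OE-MLKL range (adjusted p = 0.998 and 0.999, edgeR). Without OE-MLKL 3 the last 2 values were 0.75 ± 0.20 and −0.48 ± 0.53.

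In barcodes of at most 100 UMIs, which mostly hold no cell, the Bmp4 level was also higher in each OE-MLKL library than in OE-Vector 1. It was 367, 801, 705 and 502 CPM. OE-MLKL 3 was thus the lowest OE-MLKL library there, but the highest in neutrophils and T cells. Relative to the level in these barcodes in the same library, Bmp4 stood at 6.30% to 11.6% in macrophages, 11.2% to 27.2% in neutrophils and 5.14% to 11.99% in T cells, and the summed cancer marker list stood at 8.82% to 15.1%, 17.1% to 29.8% and 6.06% to 18.0%. The Bmp4 share was highest in OE-MLKL 3 in each of these compartments, and lowest in OE-Vector 1 in macrophages and neutrophils. The ratio of Bmp4 to Fst UMIs was 0.605, 2.67, 1.74 and 1.15 in these barcodes. It was 0.649, 3.28, 2.05 and 0.967 in macrophages, 0.479, 2.50, 2.14 and 0.892 in neutrophils, 0.465, 3.39, 2.06 and 1.23 in T cells, and 0.458, 2.31, 1.63 and 0.697 in cancer cells. The share of the Bmp4 and Fst counts of macrophages, neutrophils and T cells that came from free RNA was not tested. A Bmp4 UMI was seen in 17.8%, 22.7%, 27.5% and 31.4% of macrophages and in 93.0%, 97.4%, 96.0% and 89.4% of cancer cells. At 1000 UMIs per cell the shares were 3.04%, 5.95%, 6.64% and 5.11% of 1974, 2469, 2320 and 2779 macrophages and 42.8%, 61.7%, 60.5% and 44.1% of cancer cells.

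**Figure D3:**
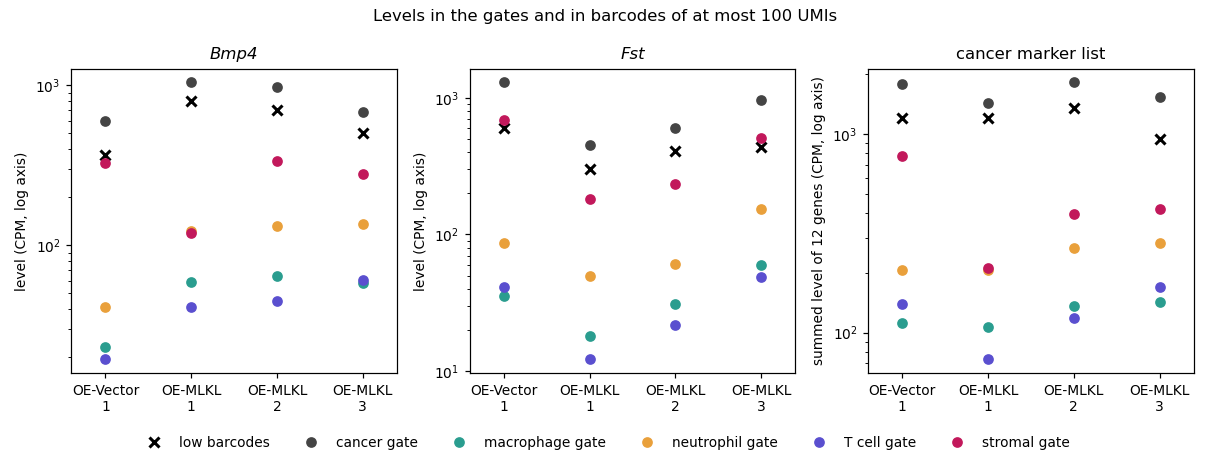
Level of Bmp4, of Fst and of the summed 12 cancer marker genes (CPM, log axis) in each library, with the 5 compartments as coloured points and barcodes of at most 100 UMIs as black crosses. Cancer cells lie above the crosses in every library and macrophages, neutrophils and T cells below them in all 3 panels, and the Bmp4 crosses lie at 367 CPM in OE-Vector 1 and between 502 and 801 CPM in the OE-MLKL libraries.

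Tgfb3 in cancer cells was 51.3 CPM in OE-Vector 1 against a mean of 25.1 ± 19.2 CPM (SD, n = 3), with a log2 fold change of −1.21 ± 0.60 (adjusted p = 0.998, edgeR). The mean hides a gap between 47.2 CPM in OE-MLKL 3 and 12.2 and 15.9 CPM in OE-MLKL 1 and 2. In macrophages, neutrophils and T cells OE-Vector 1 lay inside the OE-MLKL range of Tgfb3. Without OE-MLKL 3 the Tgfb3 values were −1.38 ± 0.41 in macrophages, −1.58 ± 0.44 in neutrophils, −0.25 ± 0.55 in T cells and −0.81 ± 0.43 in stromal cells. Tgfb2 in stromal cells was higher in each OE-MLKL library than in OE-Vector 1, by 0.92 ± 0.42 on the log2 scale (adjusted p = 0.984, edgeR), and the OE-Vector value rested on 44 UMIs in 50 cells. With doublets kept the groups overlapped, at 98.4 CPM in OE-Vector 1 and 84.6, 124 and 101 CPM in the OE-MLKL libraries (log2 0.065 ± 0.39). Without OE-MLKL 3 the value was 1.02 ± 0.39. The endothelial marker list in the stromal gate was lowest in OE-Vector 1 too, at 51.9, 154, 152 and 135 CPM, and its part in the Tgfb2 difference was not tested. Tgfb1 had log2 fold changes of 0.18 ± 0.28 in cancer cells, −0.21 ± 0.30 in macrophages, −0.56 ± 0.36 in neutrophils, −0.08 ± 0.37 in T cells and −0.60 ± 0.45 in stromal cells. OE-Vector 1 lay below the OE-MLKL range of Tgfb1 in cancer cells and above it in neutrophils and stromal cells. Without OE-MLKL 3 the values were 0.17 ± 0.20, −0.17 ± 0.28, −0.62 ± 0.29, −0.27 ± 0.23 and −0.63 ± 0.46. Inhba had −0.40 ± 0.57, −0.89 ± 0.56, −0.48 ± 0.53, 0.50 ± 0.82 and −0.27 ± 0.83 in the same order, and −0.91 ± 0.27, −1.44 ± 0.37, −0.98 ± 0.27, −0.66 ± 0.73 and −0.81 ± 0.78 without OE-MLKL 3, none past the threshold.

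Tgfbr1 had a negative log2 fold change in all 5 compartments. The values were −0.98 ± 0.45 in cancer cells, −0.40 ± 0.44 in macrophages, −1.45 ± 0.53 in neutrophils (adjusted p = 0.503, edgeR), −0.52 ± 0.40 in T cells and −0.85 ± 0.62 in stromal cells. In neutrophils OE-Vector 1 (245 CPM) lay above all 3 OE-MLKL libraries (50.3 to 169 CPM). The Tgfbr1 level in barcodes of at most 100 UMIs was 146, 62.5, 70.7 and 123 CPM, and the part of free RNA in the Tgfbr1 changes was not tested. Tgfbr2, its partner, had values between −0.73 ± 0.42 in stromal cells and 0.15 ± 0.36 in macrophages, none past the threshold. Without OE-MLKL 3, Tgfbr1 had −0.75 ± 0.30 in macrophages, −0.84 ± 0.31 in T cells and −1.19 ± 0.60 in stromal cells, and Tgfbr2 ranged from −0.90 ± 0.38 in stromal cells to 0.18 ± 0.20 in cancer cells.

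Fst in cancer cells was higher in OE-Vector 1 (1299 CPM) than in any OE-MLKL library (451 to 972 CPM). The log2 fold change was −1.09 ± 0.40 (adjusted p = 0.998, edgeR). In stromal cells it was −1.18 ± 0.53 with the groups apart as well (adjusted p = 0.984, edgeR). The cancer marker list in the stromal gate, at 771, 212, 393 and 421 CPM, was also highest in OE-Vector 1, and its part in the Fst difference was not tested. The stromal fold change of Fst was −0.54 ± 0.45 with the stricter gate, −0.50 ± 0.37 with cluster classes and −0.55 ± 0.51 with doublets kept, and −1.64 ± 0.39 without OE-MLKL 3. In macrophages and neutrophils, where OE-MLKL 3 was the highest library, it was −0.10 ± 0.53 and −0.24 ± 0.58, and in macrophages −0.60 ± 0.32 without OE-MLKL 3. Smad7 had log2 fold changes between −0.48 ± 0.56 in macrophages and 0.57 ± 0.42 in stromal cells, where it was 0.54 ± 0.40 without OE-MLKL 3.

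OE-Vector 1 lay outside the range of the OE-MLKL libraries for 6 of the 9 genes in cancer cells, against 49.4% of all genes with at least 20 UMIs. The counts were 2 in macrophages (53.3% of genes), 3 in neutrophils (59.5%), 1 in T cells (43.2%) and 7 in stromal cells (50.6%). OE-Vector 1 and OE-MLKL 3 were both above OE-MLKL 1 and 2 for 6 genes in cancer cells (Tgfb2, Tgfb3, Inhba, Tgfbr1, Fst and Smad7, against 30.1% of all genes), 5 in macrophages (23.2%), 6 in neutrophils (24.2%), 7 in T cells (34.4%) and 4 in stromal cells (27.8%).

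The calls depended on OE-MLKL 3. Each OE-MLKL library was left out in turn, and OE-MLKL 3 is described further because it resembled OE-Vector 1 in these same data, so that the calls without it, of 2 libraries against 1, describe that dependence and are no independent test of the groups. Over the 5 compartments edgeR called 0 of 44 tests of the 9 genes when OE-MLKL 1 was left out (0.143% to 1.51% of all genes by compartment). For OE-MLKL 2 it called 0 of 45 (0.0311% to 0.61%). In each case 4 tests had an unadjusted p under 0.05, for which the share of all genes is not given. For OE-MLKL 3 it called 10 of 43, against 4.95% of the tests of all genes, so that calls over all genes rose as well. In cancer cells, whose clusters differed between the libraries, 3 of 9 genes then passed with lower values in OE-MLKL 1 and 2 (3.64% of all genes tested were called), namely Tgfb3 (log2 −1.88 ± 0.22, adjusted p = 0.0088), Tgfbr1 (log2 −1.37 ± 0.21, adjusted p = 0.0206) and Fst (log2 −1.32 ± 0.22, adjusted p = 0.0248, all edgeR). In macrophages 2 of 8 passed (2.63% of genes), with Bmp4 higher (log2 1.35 ± 0.27, adjusted p = 0.0241) and Smad7 lower (log2 −1.12 ± 0.26, adjusted p = 0.0465). In neutrophils 3 of 8 passed against 10.9% of genes, with Bmp4 higher (log2 1.42 ± 0.22) and Tgfbr1 (log2 −1.87 ± 0.35) and Fst (log2 −0.84 ± 0.22) lower. The Fst level in barcodes of at most 100 UMIs was 606, 300, 406 and 437 CPM, also lower in OE-MLKL 1 and 2. The part of free RNA in the Fst call was not tested. In T cells 2 of 9 passed against 6.99% of genes, with Bmp4 higher (log2 1.22 ± 0.27, adjusted p = 0.00144) and Fst lower (log2 −1.23 ± 0.29, adjusted p = 0.00325, edgeR). T cell Fst was 41.5 CPM in OE-Vector 1 and 48.9 CPM in the omitted OE-MLKL 3. It stood at 4.05% to 11.2% of the level in barcodes of at most 100 UMIs, and the part of free RNA was not tested. In stromal cells 0 of 9 passed in edgeR (0.0445% of genes), and 3 had an unadjusted p under 0.05 (9.08% of genes).

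Whether the OE-MLKL effect differed between compartments was tested as the effect in 1 compartment minus the mean effect in the other 4. Of 45 such tests on the 9 genes 0 passed in edgeR, 8 had an unadjusted p under 0.05 (7.0% of the tests of all genes) and DESeq2 called 0, while 0.0405% of the tests of all genes passed in edgeR (0.021% in cancer cells, 0.00699% in macrophages, 0.126% in neutrophils, 0.0% in T cells and 0.0489% in stromal cells). The smallest p was that of Bmp4 in stromal cells, where the effect was 1.59 lower on the log2 scale than in the other compartments (−1.59 ± 0.40, adjusted p = 0.263, edgeR). Without OE-MLKL 3 that value was −1.69 ± 0.36 (adjusted p = 0.064, edgeR), and again 0 of the 45 passed (1.1% of the tests of all genes), with 11 at an unadjusted p under 0.05 (11.8%).

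The 72 other genes of the pathway that were counted as context comprised 15 ligands, 11 genes of latency and activation, 11 receptors, 6 SMAD transducers, 15 inhibitors and 14 transcriptional targets. Of these, 64 had at least 20 UMIs, and 36 of the 64 had their highest mean level in stromal cells, 13 in cancer cells, 8 in neutrophils, 5 in macrophages and 2 in T cells. Of all 18114 genes with at least 20 UMIs, 20.8% were highest in stromal cells, 24.6% in cancer cells, 18.8% in neutrophils, 11.8% in macrophages and 24.0% in T cells. By mean level, stromal cells led for 10 of 14 measured inhibitors and for 8 of 10 receptors. Cancer cells led for 4 of 9 ligands. Some leads were small. Smurf2 had 55.1 CPM in stromal cells and 54.6 CPM in neutrophils. Acvr1 had 42.9 CPM in stromal and 38.4 CPM in cancer cells, whereas the Tgfbr3 ranges did not overlap. Of the ligands highest in cancer cells, Bmp7 differed from stromal cells past the threshold. Inha and Gdf11 did not (adjusted p = 0.579 and 0.621, edgeR), and Bmp5 had 49 UMIs in all. Of 56 genes tested, 29 were lower and 6 higher in cancer than in stromal cells in edgeR (37.3% of all genes tested were called). Among the largest differences were those of Gdf10, a BMP family ligand, at 30.3 ± 34.7 CPM in stromal and 0.0488 CPM in cancer cells (mean ± SD, n = 4), and Id4, an inhibitor of DNA-binding proteins, at 29.2 ± 12.3 against 0.0903 CPM. Lrrc32, which presents latent TGF-beta at the cell surface, had 28.4 ± 16.4 CPM in stromal and 0.315 CPM in cancer cells, and Bambi, a decoy receptor, had 15.7 ± 5.67 against 0.216 CPM. Higher in cancer cells were Ltbp1, which ties latent TGF-beta to the matrix (log2 1.45 ± 0.29), Bmp7 (log2 1.28 ± 0.30), Tgif1, a SMAD co-repressor (log2 1.26 ± 0.22), Acvr2b, an activin receptor (log2 1.02 ± 0.31), and Smurf1 and Ccn1.

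**Figure D4:**
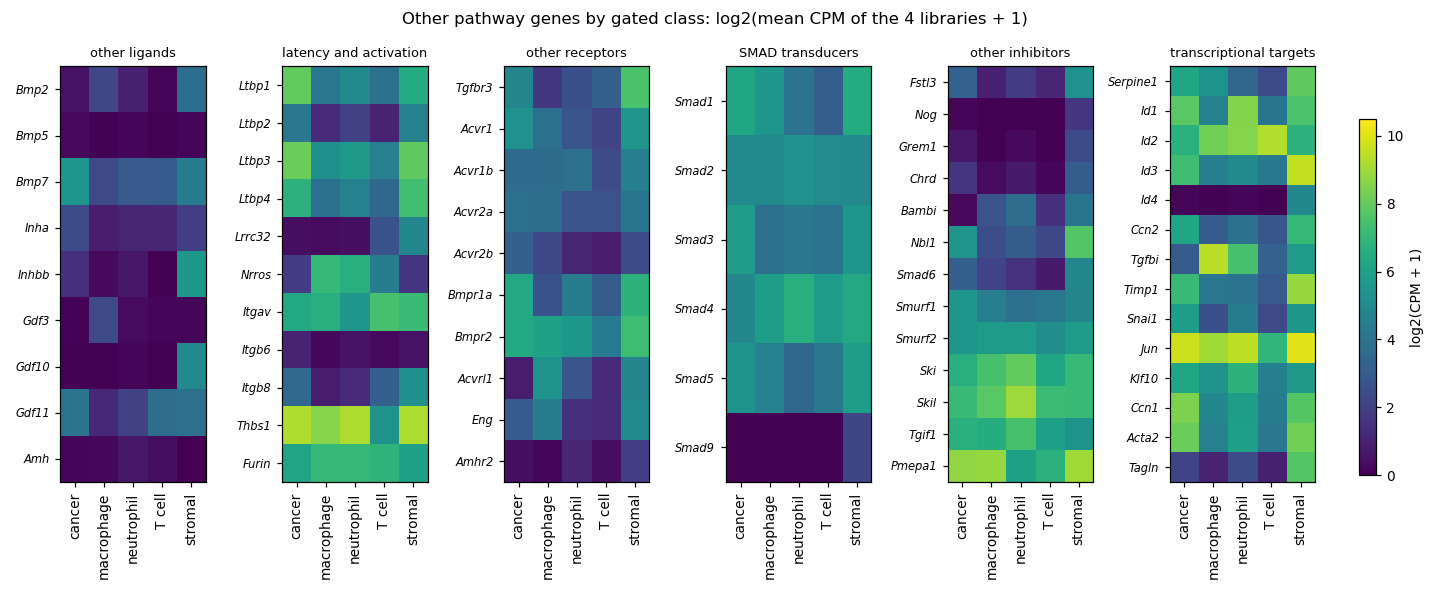
Mean level of the other pathway genes with at least 20 UMIs over the 4 libraries, as log2(CPM + 1), with genes as lines grouped by role and the 5 compartments as columns, on a common colour scale. 1 of the 64 genes is not drawn. The stromal column holds the highest value for most genes drawn, among them Tgfbr3 at 179.8 CPM, and the macrophage and neutrophil columns stand out for Nrros.

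In the other pairs, T cells were lower than stromal cells for 48 of the 56 genes and higher for 3 (61.7% of all genes were called), and macrophages were lower for 37 and higher for 8 (53.8%). Nrros, which anchors latent TGF-beta on myeloid cells, had 131 ± 17.3 CPM in macrophages and 98.3 ± 31.6 CPM in neutrophils against 2.57 CPM in cancer cells. Tgfbr3, which encodes betaglycan, the co-receptor of the Tgfb2 product, had 179.8 ± 37.9 CPM in stromal cells and 26.7 ± 3.81 CPM in the next compartment, cancer cells.

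Between OE-MLKL and OE-Vector 0 of the 72 genes passed in edgeR in any compartment, out of 60, 51, 51, 41 and 54 tested, while 2, 9, 11, 7 and 6 had an unadjusted p under 0.05 (4.77%, 6.15%, 9.11%, 4.66% and 5.08% of all genes) and DESeq2 called 0. Without OE-MLKL 3 the edgeR counts were 5 of 58, 1 of 51, 7 of 50, 6 of 39 and 0 of 51, against 3.64%, 2.63%, 10.9%, 6.99% and 0.0445% of all genes. Without OE-MLKL 1, Tgfbi (log2 2.28 ± 0.59, adjusted p = 0.0186) and Gdf10 (log2 2.72 ± 0.69, adjusted p = 0.0153, both edgeR) passed among 52 genes in stromal cells (0.817% of all genes), none passed in the other compartments, and without OE-MLKL 2 none passed in any. The gene of smallest p in each role in cancer cells was Inhbb (log2 −2.13 ± 0.71), Ltbp2 (−1.68 ± 0.72), Acvr2a (0.72 ± 0.30), Smad3 (−0.26 ± 0.25), Pmepa1 (−0.67 ± 0.30) and Acta2 (−1.03 ± 0.40). Without OE-MLKL 3 these values were −2.80 ± 0.41, −2.45 ± 0.38, 0.75 ± 0.27, −0.27 ± 0.19, −0.74 ± 0.18 and −0.999 ± 0.34. Ltbp1 in macrophages was 7.95, 22.3, 18.1 and 17.6 CPM, a log2 fold change of 1.18 ± 0.34 (adjusted p = 0.659, edgeR). In cancer cells, where its level was far higher, it was 157, 334, 241 and 269 CPM, lowest in OE-Vector 1 as well. The part of free RNA in the macrophage change of Ltbp1 was not tested. Among targets, Ccn2, a matricellular gene, was 4.84, 18.4, 20.4 and 13.8 CPM in neutrophils (log2 1.61 ± 0.44, adjusted p = 0.44, edgeR), and Tgfbi, a secreted matrix protein, was 13.7, 67.0, 52.4 and 83.2 CPM in stromal cells (log2 2.33 ± 0.52, adjusted p = 0.568, edgeR). Timp1, a metalloproteinase inhibitor, was 28.9, 11.7, 14.9 and 10.3 CPM in macrophages (log2 −1.33 ± 0.31, adjusted p = 0.492, edgeR). Without OE-MLKL 3 the log2 fold changes were 1.29 ± 0.31 for Ltbp1 in macrophages (adjusted p = 0.0538), 1.80 ± 0.29 for Ccn2 in neutrophils (adjusted p = 0.01), 2.24 ± 0.49 for Tgfbi in stromal cells (adjusted p = 0.179) and −1.18 ± 0.27 for Timp1 in macrophages (adjusted p = 0.0437, all edgeR).

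The genes whose pattern over the 20 sums was most like that of each member were ranked by Pearson r of log2(CPM + 1) among 14025 genes with at least 200 UMIs. These values describe sums that share libraries and compartments and carry no test. Bmp4 was closest to Ltbp1 (0.990), Gm49504 (0.985) and Cdh13 (0.980), and Fst to Enpp2 (0.989), Col18a1 (0.987) and Me1 (0.985). Inhba was closest to Igf2 (0.942), F5 (0.940) and Col7a1 (0.937). Tgfb2 was closest to Adamtsl1 (0.980), Ildr2 (0.977) and Gfpt2 (0.976), Tgfb3 to Dlg4 (0.928), Tceal9 (0.917) and Cemip2 (0.916), and Tgfb1 to Runx3 (0.880), Cfl1 (0.879) and Wdr1 (0.872). Tgfbr1 was closest to Tgm2 (0.954), Basp1 (0.938) and Tapbp (0.933), Tgfbr2 to Pard3b (0.910), Ust (0.900) and Col14a1 (0.885), and Smad7 to Ints8 (0.924), Gabbr1 (0.901) and Psip1 (0.900).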

How the data were processed

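From droplet-based 3′ single-cell RNA sequencing, the authors deposited UMI counts of every gene in every barcode, neither filtered nor scaled. Per the labels Cell Ranger 2.1.1 and mm10 were used, whereas the matrix headers name Cell Ranger 7.1.0 and the study's methods another version, and whether intronic reads were counted is not given in the sources used here. Matrices of OE-Vector 2 and 3 were not analysed here, and the groups therefore share a single replicate number. Total counts were 150591289 to 169978362 UMIs per library. Barcodes with at least 500 UMIs, more than 200 genes, under 10% mitochondrial and at most 5% haemoglobin UMIs were kept, and 11363 cells with the highest doublet scores were removed (0.8% per 1000 cells).

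A cell entered a gate with enough list markers at 2 or more UMIs per 10000 (2 markers for cancer, 4 for stromal and 3 for the others), if the share of the next list was at most 50% of the leading one. This gave 50357 cells in the 5 gates, with 12160 ungated. The members and lists were chosen with earlier results of these data known, and the gate rule was set after clusters had been seen. Named genes were all members, Mlkl, the 3 genes most like each member, and pathway genes past the threshold (at most 5 by size) or of smallest p in a role. 1 pathway gene that the rule names is not reported here. Clusters (Leiden, leidenalg 0.10.2, scanpy 1.11.5) served as an alternative.

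UMIs were summed per library and gate, with a minimum of 10 cells, and tested with edgeR 4.0.16 (quasi-likelihood, TMM, filterByExpr, Benjamini-Hochberg at 0.05) in R 4.3.3. DESeq2 1.42.0, RLE scaling, no count filter, a cell minimum of 1000 UMIs, kept doublets, a stricter gate, thinned cells and leaving out libraries were the alternatives. The edgeR fits with TMM scaling and the count filter, but not the alternatives, were also run on simulated counts, and the outcome is not given here. CPM is the sum per 1000000 UMIs of the gate. Shares were thinned to 1000 UMIs per cell, and their precision covers counting error only. The labels name no animals, whereas the study's methods give 3 tumours to each group. The p-values of the group comparison rest on the spread between the OE-MLKL libraries. Those of the levels rest on the spread left once library and compartment are fitted. Positions are from GENCODE vM21 (GRCm38). Promoters of 6 of 9 members were found in the RefSeq table, with no entry for Tgfb3, Fst and Smad7.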

Additional observations from a re-analysis of the deposited data

Results flagged for a closer look

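Ccn2, a target gene of the pathway that encodes a matricellular protein, was singled out because its OE-MLKL effect in stromal cells differed from that in the other compartments in the test of the difference itself. The OE-MLKL over OE-Vector log2 fold change in stromal cells minus the mean of the other 4 compartments was −2.37 ± 0.38 (adjusted p = 0.0388, edgeR). In stromal cells its level was 189.9 CPM in OE-Vector 1 and 55.1, 183 and 91.9 CPM in OE-MLKL 1, 2 and 3. All OE-MLKL libraries were lower, though OE-MLKL 2 (136 UMIs) lay close to OE-Vector 1 (139 UMIs). The stromal change alone did not pass with all libraries, and was −0.65 ± 0.56 on the log2 scale without OE-MLKL 3. In cancer cells the level was 39.1, 89.4, 90.8 and 62.1 CPM in the same order, in macrophages 3.01, 8.97, 10.3 and 6.37 CPM and in T cells 1.66, 6.50, 9.94 and 5.68 CPM, with all OE-MLKL libraries higher. In barcodes of at most 100 UMIs, which mostly hold no cell, Ccn2 stood at 39.1, 98.0, 96.8 and 35.1 CPM, above macrophages, neutrophils and T cells in every library, and the part of free RNA in the contrast was not tested. The T cell values rest on 8 to 22 UMIs. The call was lost with compartments taken from clusters (−2.36, adjusted p = 0.0634) and without OE-MLKL 2 (−2.63, adjusted p = 0.198). Without OE-MLKL 3 it was −2.46 (adjusted p = 0.0316). Groups of 3 and 1 libraries are too small for the check for a single deviating library.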

How the results depend on the processing

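The number of genes called between OE-MLKL and OE-Vector depended on the tool, the count filter and single libraries. It was 0, 4, 0, 3 and 0 in cancer cells, macrophages, neutrophils, T cells and stromal cells in edgeR, and 77, 83, 116, 18 and 14 in DESeq2. Leaving out 1 OE-MLKL library gave 5 to 573, 13 to 345, 19 to 1349, 15 to 740 and 4 to 75. Without a count filter it was 32 in macrophages, 72 in neutrophils, 111 in T cells and 127 in stromal cells. With doublets kept it was 0 in macrophages, 1 in T cells and 1 in stromal cells, with at least 1000 UMIs per cell 1 in neutrophils, with the stricter gate 3 in stromal cells, and with cluster classes 8 in T cells. The tests of a different OE-MLKL effect between compartments called 29 genes, against 463 in DESeq2, 85 with RLE scaling, 402 without a filter, 424 with doublets kept and 8 to 766 with an OE-MLKL library left out. The cause was not tested.

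Of 438 alternative fold changes of the members, 413 kept direction and side of the threshold, 12 came to pass it and 13 changed sign, none of which had passed. Fst in neutrophils went to 0.034 with doublets kept and 0.21 with cluster classes, Bmp4 in stromal cells to 0.25 with doublets kept, and Inhba in stromal cells to 0.17 and 0.10. Leaving out 1 OE-MLKL library gave −0.034 to 0.32 for Tgfbr2 and −0.60 to 0.20 for Fst in macrophages, −0.84 to 0.014 for Fst in neutrophils, −0.81 to 0.23 for Inhba in stromal cells, and −0.27 to 0.069 for Tgfb1, −0.66 to 0.83 for Inhba, −0.26 to 0.071 for Tgfbr2 and −0.17 to 0.28 for Smad7 in T cells.

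Of 396 alternatives for neighbouring levels, 310 kept direction and side, 45 lost the threshold, 19 came to pass it and 22 changed sign. Bmp4 of stromal cells over neutrophils became −0.15 with doublets kept, −0.52 with the stricter gate and −0.49 with cluster classes, and Inhba −0.17 with cluster classes. Tgfb2 of cancer cells over neutrophils was 0.21 without a filter, 0.052, 0.53 and 0.71 with doublets kept, the stricter gate and cluster classes, and −0.30 to 0.68 with a library left out. Tgfb2 of neutrophils over macrophages was −0.23, −0.22 and −0.35 under those 3 settings and −0.034 to 0.97 with a library left out, and that of T cells over cancer cells was −0.25 to 1.71. Tgfb3 of T cells over neutrophils was 0.10 in DESeq2 and 0.10 without a filter, 0.0077 at 1000 UMIs, 0.088 with the stricter gate, 0.15 with cluster classes and −0.18 to 0.53 with a library left out.

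No paired analysis was possible because the groups share a single replicate number among the libraries analysed. With 1 OE-Vector library, the spread of that group is unknown, and the OE-Vector library and the group cannot be told apart. The stromal values of OE-Vector 1 rest on 50 cells.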

Other observations

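Outside the 5 compartments lay 20.3% of all cells, 12160 of them in no gate and 665 in other gates, and levels in 2 of these other gates are given as values only. Endothelial cells, gated by their own markers (40, 23, 39 and 34 cells in OE-Vector 1 and OE-MLKL 1, 2 and 3), had Tgfb1 at 251, 211, 242 and 239.5 CPM, above the stromal and the macrophage level in each library, and Tgfbr2 at 149.6, 262, 157 and 283 CPM. Tgfb2, whose level was highest in stromal cells, had 5, 7, 4 and 21 UMIs in them, or 8.70, 50.9, 17.0 and 48.4 CPM. Fst had 229.7, 14.5, 25.5 and 223 CPM in the same cells, so that OE-Vector 1 and OE-MLKL 3 stood apart from the others there as well. The low values of OE-MLKL 1 and 2 come from only 23 and 39 cells, and the part of free RNA or of cancer cells in this gate was not tested.

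Natural killer cells (41, 19 and 40 cells in OE-Vector 1 and OE-MLKL 2 and 3, with too few in OE-MLKL 1) had Tgfb1 at 281, 389.6 and 643 CPM and Smad7 at 243, 149.8 and 388 CPM. The T cell gate also had its highest Tgfb1 (232 CPM) and Smad7 (242 CPM) in OE-MLKL 3. The natural killer marker list in that gate, which includes Gzma, had 3927 CPM in OE-Vector 1 and 2049 CPM in OE-MLKL 3. The part of natural killer cells in the levels of the T cell gate was not tested.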
